A study of Mus musculus with 15 samples.

Results

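Gq is the heterotrimeric G protein that couples many vasoconstrictor receptors to phospholipase C beta. The genes described here are 9 components and regulators of that step: the alpha subunits Gnaq and Gna11, the phospholipase C beta genes Plcb1, Plcb2, Plcb3 and Plcb4, and the regulators of G protein signalling Rgs2, Rgs4 and Rgs5. They were taken by gene symbol from a count table of the mouse thoracic aorta, where they made up 9 of 37681 rows. All 9 were among the 15134 genes with enough counts to be tested. The symbols were chosen by their place in the pathway, with earlier results of the same counts in view, so all 3 comparisons count as used in the choice. Their values are given as a description, and no p-value was computed for the group.

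All 15 animals were adult male wild-type C57BL/6 mice, 10 to 12 weeks old. Each received one 100 uL oral gavage of PEG-400, and the 3 groups of 5 mice differed in what it carried. Vehicle mice received PEG-400 alone, celecoxib mice received 30 mg/kg celecoxib and rofecoxib mice received 10 mg/kg rofecoxib; both drugs are selective inhibitors of cyclooxygenase-2, the inducible enzyme of prostaglandin synthesis. Aortas were collected 6 h later, at zeitgeber time 11, and polyadenylated RNA was sequenced, 1 library per mouse. The inhibitors differ in dose as well as in structure, so a difference between them cannot be assigned to either.

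An agonist-bound receptor loads Gq or G11 with GTP, and the active alpha subunit switches on phospholipase C beta. That enzyme splits a membrane phosphoinositide into inositol trisphosphate, which releases stored calcium, and diacylglycerol, which activates protein kinase C. In arterial smooth muscle this is a main route by which angiotensin, endothelin, noradrenaline and thromboxane raise tone. RGS proteins end the signal by speeding GTP hydrolysis on the alpha subunit; Rgs2 is known for its preference for Gq, Rgs4 acts on both Gi and Gq, and Rgs5 is abundant in arterial smooth muscle and is widely used as a pericyte marker.

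The RGS genes and Plcb4 are the genes described library by library below, so the sequence upstream of their transcription starts is shown first. All 9 genes matched RefSeq promoter records on GRCm38.p6, with 10 promoters because Plcb4 has a pair of them. Each line holds the 250 bases before the start, 5′ to 3′ on the strand of the gene, and capitals mark the TATA box motif TATAAA, the cyclic AMP response element core TGACG and the CCAAT box, read on either strand. The windows lie at chr1:144004150-144004399 (minus strand) for Rgs2, chr1:169747643-169747892 (minus) for Rgs4, chr1:169655251-169655500 (plus) for Rgs5, and chr2:135659297-135659546 and chr2:135764588-135764837 (both plus) for Plcb4.
Rgs2: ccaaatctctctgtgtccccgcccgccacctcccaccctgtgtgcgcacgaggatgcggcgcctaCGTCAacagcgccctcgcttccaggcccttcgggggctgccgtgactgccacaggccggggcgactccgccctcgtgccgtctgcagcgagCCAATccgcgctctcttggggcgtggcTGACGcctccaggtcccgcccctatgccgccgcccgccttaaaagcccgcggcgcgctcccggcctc
Rgs4: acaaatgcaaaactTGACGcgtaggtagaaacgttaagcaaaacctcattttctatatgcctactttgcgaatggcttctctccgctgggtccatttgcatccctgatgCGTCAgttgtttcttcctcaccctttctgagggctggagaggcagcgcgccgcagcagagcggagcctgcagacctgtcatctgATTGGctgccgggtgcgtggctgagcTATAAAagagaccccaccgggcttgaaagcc
Rgs5: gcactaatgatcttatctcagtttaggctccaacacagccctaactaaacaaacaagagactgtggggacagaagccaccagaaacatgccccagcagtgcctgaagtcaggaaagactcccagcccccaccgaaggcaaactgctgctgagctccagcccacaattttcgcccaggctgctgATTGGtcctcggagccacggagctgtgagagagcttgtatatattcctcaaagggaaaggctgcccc
Plcb4 promoter 1: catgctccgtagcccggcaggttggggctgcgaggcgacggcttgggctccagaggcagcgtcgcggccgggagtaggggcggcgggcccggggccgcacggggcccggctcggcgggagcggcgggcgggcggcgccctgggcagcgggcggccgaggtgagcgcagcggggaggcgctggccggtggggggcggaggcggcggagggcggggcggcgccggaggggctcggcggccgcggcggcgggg
Plcb4 promoter 2: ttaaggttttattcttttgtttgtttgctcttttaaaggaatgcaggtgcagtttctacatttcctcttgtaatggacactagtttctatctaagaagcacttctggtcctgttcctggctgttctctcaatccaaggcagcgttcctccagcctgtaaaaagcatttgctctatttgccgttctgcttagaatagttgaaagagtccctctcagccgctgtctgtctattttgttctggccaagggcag

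The 3 RGS windows each held 1 CCAAT, at 89 bases before the start in Rgs2, 52 in Rgs4 and 62 in Rgs5, and no window of the other 6 genes held one. Over all 32851 RefSeq promoters, 33.8% held CCAAT in the same span. TGACG occurred 2 times in Rgs2 and 2 times in Rgs4 and was absent from the Rgs5 window; 17.8% of all promoters held it. Only Rgs4 had a TATAAA, 25 bases before the start, a motif found in 12.4% of promoters. GGGCGG, the GC box, occurred 4 times in Rgs2 and 7 times in the first Plcb4 window, against 32.7% of promoters with at least 1. It also occurred 5 times in Plcb3, 4 in Gnaq, 2 in Gna11 and 1 in Plcb1, and was absent from the other windows. GC content was 72.4% in Rgs2, 53.6% in both Rgs4 and Rgs5, and 85.2% and 42.8% in the first and second Plcb4 windows, beside a median of 52.4% over all promoters. The E-box CACGTG and the CArG box were in none of the 10 windows, and 6.02% and 1.47% of all promoters held them. These matches describe the letters in the windows and say nothing of which factors bind there.

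On a scale of CPM (counts per 1000000 counts, on scaled library sizes) divided by the exon length of the gene, the 9 genes spanned from 590 CPM per kb for Rgs5 to 0.0877 for Plcb2. Rgs5 was the 28th most abundant of the tested genes by CPM. Below it came Plcb4 at 91.8 CPM per kb, Rgs4 at 76.4, Gna11 at 43.4 and Plcb3 at 35.1, then Gnaq at 16.1, Rgs2 at 14.1 and Plcb1 at 5.09. Rgs5 stood above Plcb4 in 15 of 15 libraries. Plcb4 was above Rgs4 in 13 libraries, Rgs4 above Gna11 in 14 and Gnaq above Rgs2 in 12, and the ranges of these neighbours overlapped. Gna11 was above Plcb3 in all 15 although their ranges over libraries also overlapped. Exon lengths came from GENCODE M21 on GRCm38, whereas the annotation behind the counts is not given in the sources used here.

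Library totals lay between 30937046 and 30967115 counts, and 19158 to 19746 genes were detected per library. The labelled tissue carried its defining markers: the 8 smooth muscle markers, led by Acta2 and Myh11, summed to 37097 to 53063 CPM in the libraries. In bulk RNA, fewer cells of a type and less RNA per cell cannot be told apart. No fat marker passed the edgeR test described below, in which no gene passed, and their summed levels overlapped between the groups. At an unadjusted p below 0.05 in that test, 7 of 7 tested brown adipocyte markers were lower with celecoxib than with vehicle. With rofecoxib 5 of 7 were lower. For the white and general markers the counts were 6 of 8 and 0 of 8. Of all genes, 12.5% and 5.18% were counted in either direction. Median log2 fold changes were -1.34 and -1.07 for the brown list and -0.87 and -0.46 for the white list. The 8 white and general adipocyte markers, all detected, summed to 1340 to 3139 CPM with vehicle, 700.4 to 1639 with celecoxib and 1022 to 2366 with rofecoxib. The corresponding ranges for 8 brown adipocyte markers were 379.5 to 1591, 72.7 to 522 and 192 to 462 CPM. Sympathetic neuron markers, 10 genes, summed to 10.0 to 311 CPM with vehicle, 5.76 to 711 with celecoxib and 9.06 to 466 with rofecoxib. Library preparation was spread over days that the labels do not tie to samples, and no batch term was fitted.

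In edgeR's quasi-likelihood test over all 15 libraries, with Benjamini-Hochberg adjustment over 15134 genes and a threshold of 0.05, none of the 9 genes passed in any of the 3 comparisons. Neither did any other gene (0% called in each comparison). At an unadjusted p below 0.05, 0 of 9 were counted for celecoxib against vehicle, where 12.5% of all genes were. For rofecoxib against vehicle the count was 1 of 9, Plcb4, beside 5.18% of all genes, and for celecoxib against rofecoxib 2 of 9, Plcb4 and Rgs5, beside 6.96%. The groups overlapped in CPM for all 9 genes in every comparison; non-overlap was seen in 1.3%, 1.16% and 1.32% of all genes, in that order. The median log2 fold change of the 9 genes was 0.02 for celecoxib against vehicle, 0.01 for rofecoxib against vehicle and -0.02 for celecoxib against rofecoxib. Over all genes it was 0.01, -0.00 and 0.01. Both drugs were compared with the same vehicle libraries. DESeq2 called 126 genes for celecoxib against vehicle, 0 for rofecoxib against vehicle and 19 for celecoxib against rofecoxib, none of them among the 9, and limma-voom called 0 in each.

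**Figure D1:**
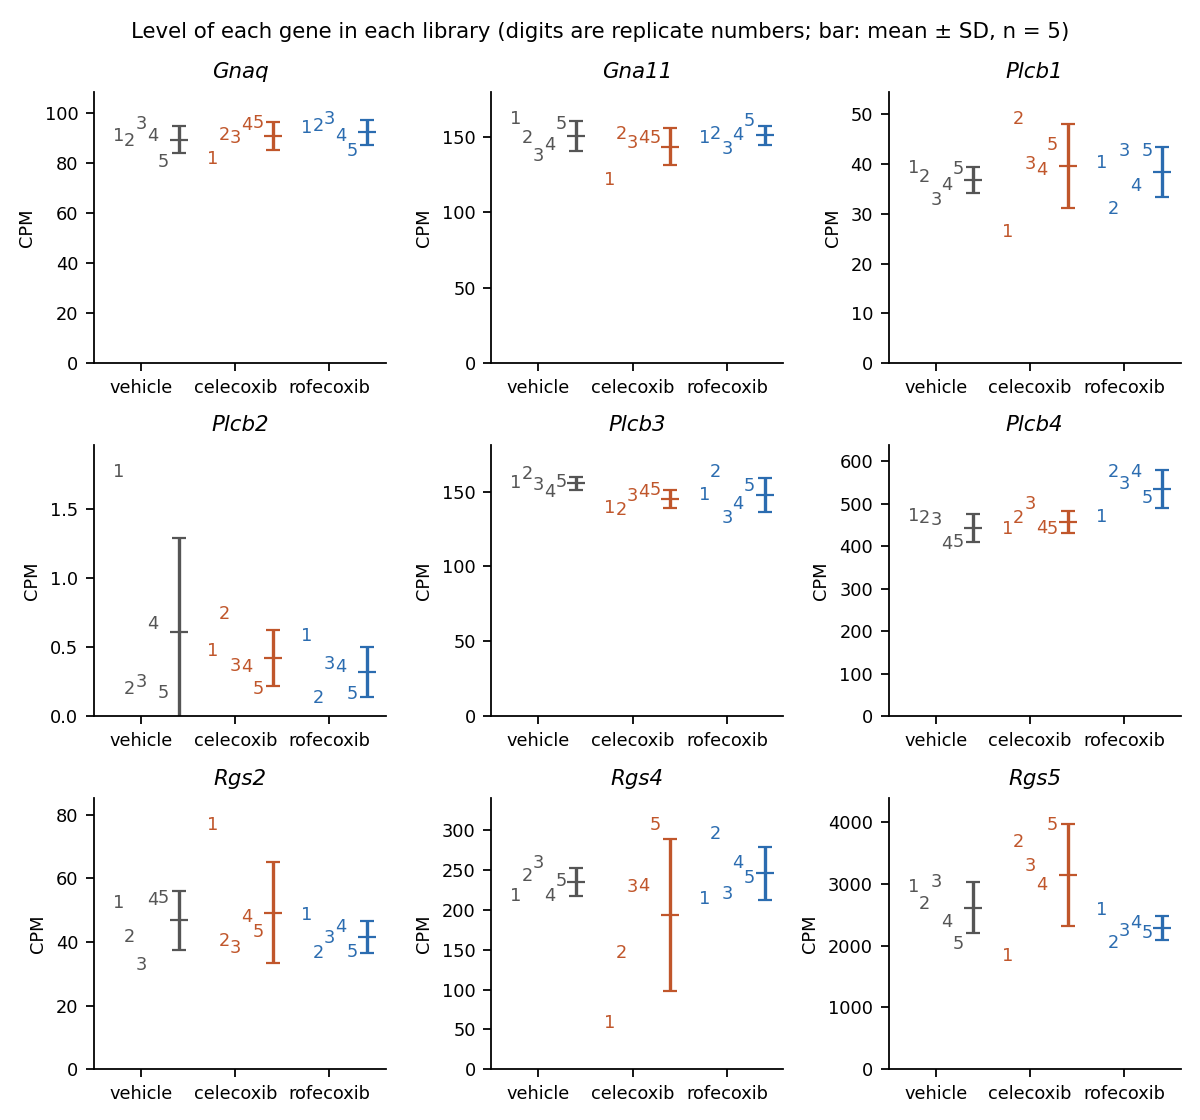
Level of each of the 9 genes in CPM (vertical axis, from 0) in the vehicle, celecoxib and rofecoxib groups; each digit is the library with that replicate number and bars give the mean and SD of 5 libraries. Plcb4 reached 515 to 575 CPM in rofecoxib libraries 2 to 5. Celecoxib 1 lay below the other 4 celecoxib libraries for Plcb1, Gnaq, Gna11, Rgs4 and Rgs5 and above them for Rgs2. For Plcb4 it was also the lowest of its group, at 439.8 CPM beside a minimum of 441.2 in the others.

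The alpha subunits were among the least variable of the 9 genes. Gna11 (ENSMUSG00000034781, mm9 chr10:80991267-81008137) encodes the alpha subunit of G11. Its level averaged 150.3 ± 9.98 CPM (SD, n = 5) with vehicle, 144 ± 12.4 with celecoxib and 151 ± 6.55 with rofecoxib. Gnaq (ENSMUSG00000024639, mm9 chr19:16207119-16462155), the Gq alpha subunit, averaged 89.5 ± 5.48, 90.9 ± 5.66 and 92.4 ± 4.97 CPM. The group means of each gene differed by less than the range of its vehicle libraries. The lowest Gna11 level of the 15 libraries was 121.7 CPM, in celecoxib 1. Its log2 fold change for celecoxib against vehicle was -0.07 ± 0.06 with that library and -0.00223 without it. The within-group SD on the log2 scale was 0.09 for Gnaq and 0.10 for Gna11, beside a median of 0.18 over all tested genes. The 95% intervals of the fold change between celecoxib and vehicle were 0.934 to 1.10 for Gnaq and 0.869 to 1.05 for Gna11. Within a library, the Gnaq to Gna11 count ratio had a median of 0.597 with vehicle, 0.638 with celecoxib and 0.623 with rofecoxib, with overlapping ranges.

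Plcb4 (ENSMUSG00000039943, mm9 chr2:135484545-135840531), a phospholipase C beta isoform best known from cerebellum and retina, was the main isoform of the family here. In vehicle libraries 1 to 5 its level was 471, 467, 462, 405 and 411 CPM. In the celecoxib libraries it was 439.8, 466, 499, 443 and 441 CPM. In the rofecoxib libraries it was 468, 574, 547, 575 and 515 CPM. All rofecoxib libraries were above the vehicle median and 4 of 5 were above the highest vehicle library, whereas the lowest, rofecoxib 1, lay inside the vehicle range. The group means were 443 ± 32.3, 458 ± 25.2 and 536 ± 45.3 CPM for vehicle, celecoxib and rofecoxib (SD, n = 5). Against vehicle, the log2 fold change with rofecoxib was 0.27 ± 0.07 (SE), or 1.21-fold with a 95% interval of 1.09 to 1.34. The edgeR adjusted p was 0.896, so the difference was not called. With celecoxib the log2 fold change was 0.05 ± 0.07, with an edgeR adjusted p of 0.818. Celecoxib against rofecoxib gave -0.23 ± 0.07 (edgeR adjusted p = 0.649), with 4 of 5 celecoxib libraries below every rofecoxib library. Leaving out 1 library at a time kept the difference between rofecoxib and vehicle at 0.25 to 0.32. With the mean level of the adipocyte markers as a covariate it was 0.20, and with that of the sympathetic neuron markers 0.28. The adipocyte markers were themselves lower on average in both drug groups. Brown marker sums averaged 816 CPM with vehicle, 266 with celecoxib and 314 with rofecoxib. A fit with that covariate therefore also takes out part of the group difference and cannot tell fat and drug apart.

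Plcb3 (ENSMUSG00000024960, mm9 chr19:7028002-7044481), the broadly expressed isoform, had the smallest spread of the 9 genes, a within-group SD of 0.08 on the log2 scale. Its level ranged over 149 to 162 CPM with vehicle, 137 to 151 with celecoxib and 132 to 163 with rofecoxib. All celecoxib libraries were below the vehicle median, and 3 of 5 were below the lowest vehicle library. The fold change for celecoxib against vehicle was 0.931 with a 95% interval of 0.860 to 1.01 and an edgeR adjusted p of 0.452.

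Plcb1 (ENSMUSG00000051177, mm9 chr2:134611693-135301196) lies on the same chromosome as Plcb4, with 183348 bases between them in mm9. Its level ranged over 32.7 to 39.2 CPM with vehicle, 26.4 to 49.1 with celecoxib and 31 to 42.7 with rofecoxib. The celecoxib group held both the lowest of the 15 libraries, celecoxib 1, and the highest, celecoxib 2. Celecoxib against vehicle gave a log2 fold change of 0.11 ± 0.13 (edgeR adjusted p = 0.796), and 0.23 without celecoxib 1 (adjusted p = 0.444). Plcb2 (ENSMUSG00000040061, mm9 chr2:118533051-118554376), an isoform known from blood cells, was near the limit of measurement at 0.133 to 1.77 CPM. Vehicle 1 held its highest level, 1.77 CPM. Its log2 fold change for celecoxib against vehicle was -0.52 ± 0.62 with that library and 0.40 without it.

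Shares of the family's counts do not depend on how libraries were scaled. Over all 15 libraries Plcb4 held 71.6 ± 2.51% of the Plcb counts (SD, n = 15), Plcb3 22.5 ± 2.14%, Plcb1 5.77 ± 0.92% and Plcb2 0.0687%. The Plcb4 share was 67.7 to 71.1% with vehicle, 69.3 to 72.7% with celecoxib and 71.3 to 76.4% with rofecoxib. The Plcb3 to Plcb4 ratio had a median of 0.347 with vehicle (0.330 to 0.381), 0.317 with celecoxib (0.294 to 0.342) and 0.284 with rofecoxib (0.242 to 0.316). The vehicle and rofecoxib ranges of this ratio did not overlap, and the celecoxib range overlapped both. The ratio was taken after Plcb4 had been seen to differ most and was not tested. How often the ratio of other gene pairs separates vehicle from rofecoxib was not counted.

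**Figure D2:**
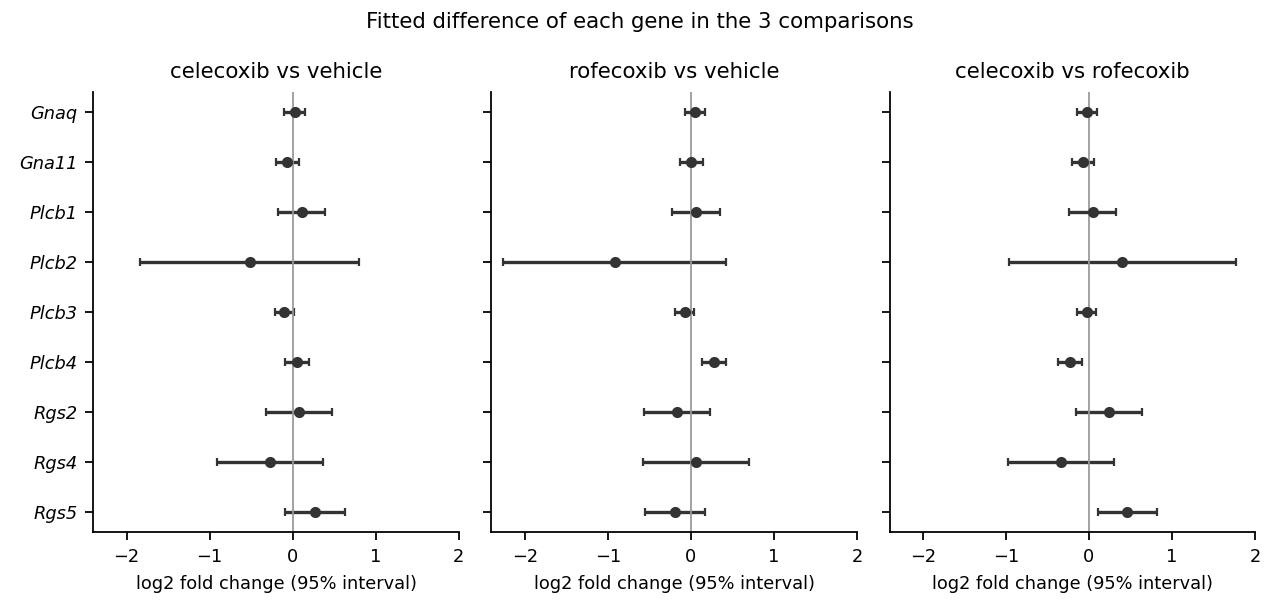
Log2 fold change (points) with its 95% interval (bars) from edgeR for each gene in the 3 comparisons, 5 libraries per group. The interval of Plcb4 excludes 0 for rofecoxib against vehicle and for celecoxib against rofecoxib, that of Rgs5 for celecoxib against rofecoxib, and none of the 27 values passed after adjustment over all genes.

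Rgs5 (ENSMUSG00000026678, mm9 chr1:171585430-171626146) encodes a small RGS protein and was the most abundant of the 9 genes. In vehicle libraries 1 to 5 its level was 2945, 2684, 3029, 2388 and 2029.8 CPM. In the celecoxib libraries it was 1834, 3685, 3298, 2978 and 3955 CPM. In the rofecoxib libraries it was 2579, 2047, 2243, 2361 and 2209 CPM. Celecoxib libraries 2 to 5 were above every rofecoxib library, whereas celecoxib 1 was the lowest of all 15. Group means were 2615 ± 412 CPM with vehicle, 3150.2 ± 824 with celecoxib and 2288 ± 198 with rofecoxib (SD, n = 5). Celecoxib against vehicle gave a log2 fold change of 0.27 ± 0.17 (edgeR adjusted p = 0.544), and rofecoxib against vehicle -0.19 ± 0.17 (not called), with 5 of 5 rofecoxib libraries below the vehicle median. Celecoxib against rofecoxib gave 0.46 ± 0.17, or 1.38-fold with a 95% interval of 1.07 to 1.77 (edgeR adjusted p = 0.649). None of the 9 genes separated celecoxib from vehicle without celecoxib 1, beside 1.94% of all genes; the Rgs5 difference from vehicle was then 0.42 (adjusted p = 0.360) and that from rofecoxib 0.60 (adjusted p = 0.540). Rgs5 was then the 1 gene of the 9 whose celecoxib and rofecoxib libraries did not overlap, beside 1.74% of all genes. For Rgs5 the library left out was the lowest of all 15, so this restates the values above and is not separate support. With celecoxib 1 kept, these groups overlapped. With the adipocyte markers as a covariate the difference between celecoxib and vehicle was -0.000338, that between rofecoxib and vehicle -0.33 and that between celecoxib and rofecoxib 0.33. Because these markers differ between the groups, that fit cannot tell fat and drug apart. Without vehicle 3 the difference between rofecoxib and vehicle was -0.12. The 8 pericyte markers, led by Mcam and Cspg4 and all detected, summed to 3215 to 4187 CPM with vehicle, 2978 to 3708 with celecoxib and 3498 to 4162 with rofecoxib, overlapping between all groups.

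Rgs4 (ENSMUSG00000038530, mm9 chr1:171671406-171677975) lies 45259 bases from Rgs5 in mm9 and had the widest spread of the 3 RGS genes. In vehicle libraries 1 to 5 its level was 217, 243, 259, 218 and 237 CPM. In the celecoxib libraries it was 57.5, 146, 228, 230.5 and 306 CPM. In the rofecoxib libraries it was 214, 295, 220.4, 258 and 241 CPM. The celecoxib group held both the lowest and the highest of the 15 libraries, so its SD was 94.98 CPM, beside 17.6 with vehicle and 32.7 with rofecoxib. Celecoxib against vehicle gave a log2 fold change of -0.28 ± 0.30 (edgeR adjusted p = 0.753), and -0.03 without celecoxib 1. Rofecoxib against vehicle gave 0.07 ± 0.30, and celecoxib against rofecoxib -0.34 ± 0.30 (adjusted p = 0.824) or -0.11 without celecoxib 1. The Rgs4 to Rgs5 count ratio ranged over 0.0737 to 0.117 with vehicle, 0.0313 to 0.0775 with celecoxib and 0.0829 to 0.144 with rofecoxib. The celecoxib and rofecoxib ranges of this ratio did not overlap, and it was not tested. How often the ratio of other gene pairs separates these groups was not counted. The Rgs2 to Rgs5 and Plcb4 to Plcb1 ratios overlapped between all groups.

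Rgs2 (ENSMUSG00000026360, mm9 chr1:145846266-145851493), the Gq-preferring member, was the least abundant of the 3 RGS genes. In vehicle libraries 1 to 5 its level was 52.3, 41.7, 32.9, 53.4 and 53.9 CPM. In the celecoxib libraries it was 76.8, 40.4, 38.1, 47.8 and 43.2 CPM. In the rofecoxib libraries it was 48.4, 36.7, 41.4, 44.6 and 36.9 CPM. Celecoxib 1 was the highest of the 15 and the other 14 libraries spanned 32.9 to 53.9 CPM. The log2 fold change was 0.07 ± 0.19 for celecoxib against vehicle (edgeR adjusted p = 0.905) and -0.17 ± 0.19 for rofecoxib against vehicle (not called). Celecoxib against rofecoxib gave 0.24 ± 0.19 (adjusted p = 0.796). Without celecoxib 1 the first was -0.13 and the last 0.02, and without vehicle 3 the first was -0.02. With the adipocyte markers as a covariate the 3 values were 0.45, 0.06 and 0.39, with edgeR adjusted p-values of at least 0.433. Here too the covariate differs between the groups, and fat and drug cannot be told apart.

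**Figure D3:**
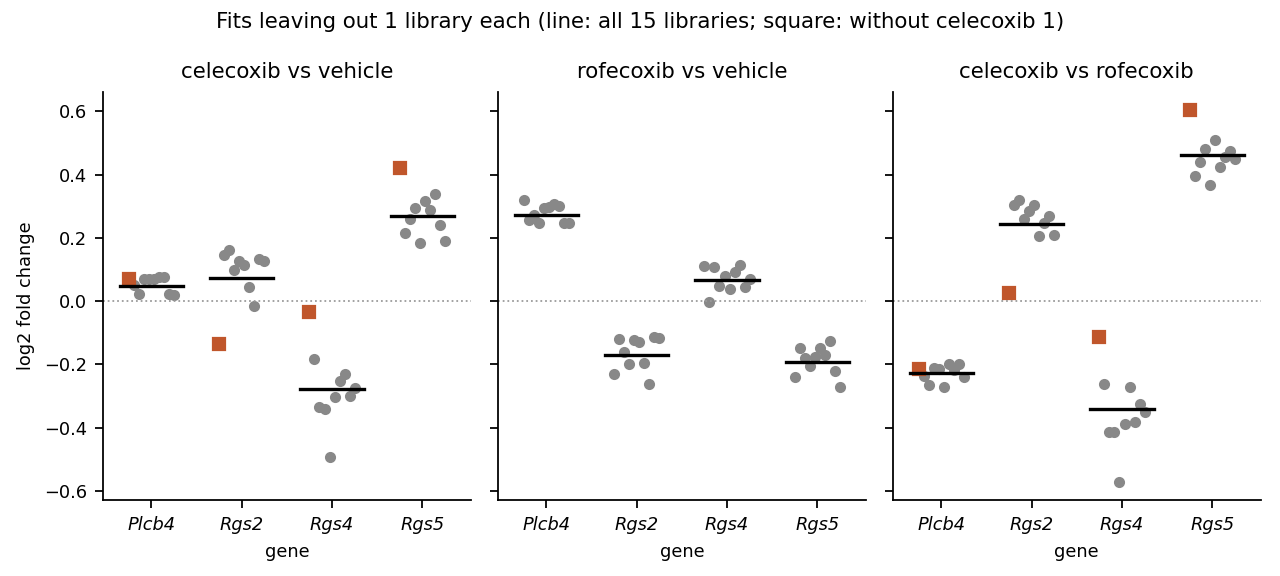
Log2 fold change of Plcb4, Rgs2, Rgs4 and Rgs5 in the 3 comparisons with 1 library left out at a time (points), with all 15 libraries (lines) and without celecoxib 1 (squares). Leaving out celecoxib 1 takes Rgs2 from 0.07 to -0.13 and Rgs4 from -0.28 to -0.03 against vehicle, and Rgs5 from 0.46 to 0.60 against rofecoxib, while Plcb4 against vehicle with rofecoxib stays between 0.25 and 0.32.

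Celecoxib 1 thus departed from its group in several of the 9 genes at once. The share of all tested genes in which this library was the lowest or the highest was not counted, so the departure cannot be called particular to the 9. Relative to the mean of the other 4 celecoxib libraries, its level was 0.252-fold for Rgs4, 0.527-fold for Rgs5, 0.614-fold for Plcb1, 0.817-fold for Gna11 and 0.879-fold for Gnaq, and 1.81-fold for Rgs2. Plcb3 and Plcb4 were at 0.952-fold each. The same library held 972 CPM of Fkbp5, a glucocorticoid-induced chaperone, beside 43.6 to 279.6 in the other 14. The metallothioneins Mt1 and Mt2 stood at 2270.1 and 1891 CPM there, beside 77.9 to 427 and 25.6 to 304 elsewhere. Celecoxib 1 was also the lowest of the 15 in the summed levels of 4 of the pathway lists described below. In the other RGS list it held 142 CPM, beside 192.5 to 243 elsewhere, and in the Gq-coupled receptors 394, beside 414 to 528. In the other alpha subunits it held 977 CPM, beside 995 to 1102, and in the beta and gamma subunits 887, beside 972 to 1086. The most abundant gene of the other RGS list, Rgs7bp at a mean of 77.2 CPM, does not encode an RGS protein. Celecoxib 1 was the highest in the other phospholipase C genes (396 CPM, beside 327 to 364). Its Myh11 level of 12494 CPM was inside the range of the other libraries, 9687 to 13119, and its pericyte marker sum of 2978 CPM was the lowest of the 15. Its sums of sympathetic neuron (5.76 CPM), Schwann cell (260) and mast cell markers (14.1) were also the lowest. The lymphocyte marker sum, 3.29 CPM, was the highest, and for the remaining marker lists celecoxib 1 was neither. Whether these levels share a source with the RGS levels was not tested.

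**Figure D4:**
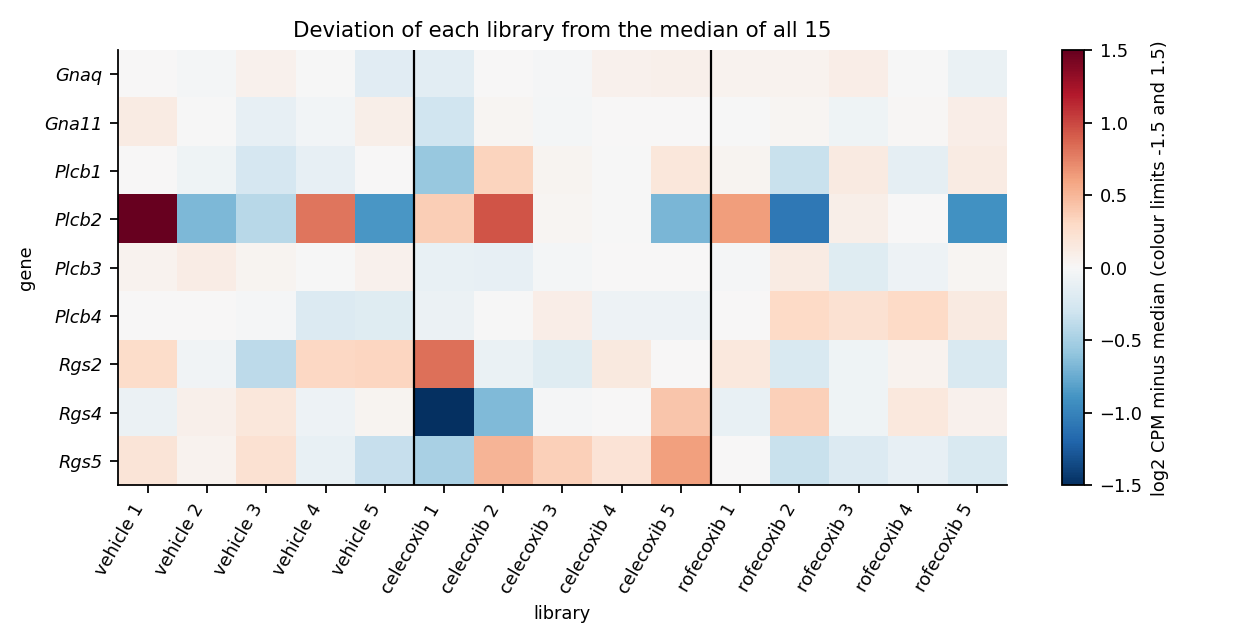
Deviation of each library (columns) from the median of all 15 libraries on the log2 CPM scale for each gene (rows), with colours limited at -1.5 and 1.5. The column of celecoxib 1 is low for Rgs4, Rgs5 and Plcb1 and high for Rgs2, rofecoxib 2 to 5 are high for Plcb4, and Plcb2, with 4 to 55 counts per library, varies most.

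After each group's mean was subtracted, the Pearson correlation between Rgs4 and Rgs5 over the 15 libraries was 0.70, with a Spearman rho of 0.16. It was 0.23 without celecoxib 1 and -0.19 without celecoxib 1 and celecoxib 5, so the value rested on those libraries. Rgs2 correlated at -0.70 with Rgs4 and -0.69 with Rgs5, and at -0.37 and -0.40 without celecoxib 1. Among 11930 other genes, the closest to Plcb4 in the same sense were Mettl5 (r = 0.91), Mtbp (0.88) and Fam172a (0.88), with r of 0.88, 0.85 and 0.89 without the most distant pair of libraries. Arsk (0.96) and Zfp704 (0.92) were among the closest to Rgs5, and held 0.86 and 0.77. Those closest to Rgs4 were Arhgap44 (0.96), Igf2r (0.94) and Ncbp2 (0.93), which held 0.73, 0.65 and 0.48. Dyrk1b (0.91), Fbxw8 (0.90) and Gosr2 (0.90) were closest to Rgs2, and held 0.84, 0.71 and 0.71. For the others the leading genes were Synm, Adcy2 and Enpp1 for Plcb1, Iqgap1, Tmbim1 and Heatr7a for Plcb3, Arhgap20, Dennd2c and Tmeff2 for Gnaq, and Sepn1, Esyt1 and Cep250 for Gna11. The Plcb1 genes had r of 0.90 and held 0.65 to 0.79. Those of Plcb3 had 0.79 to 0.82 and held 0.64 to 0.80. For Gnaq r was 0.89 to 0.93 (held 0.85 to 0.88), and for Gna11 0.93 to 0.95 (held 0.81 to 0.85). Plcb2 was closest to Mpeg1, a macrophage gene (0.86), then to Ear2 (0.84) and to H2-DMa, an antigen presentation gene (0.83). For Plcb2 they held 0.71, 0.63 and 0.65. The correlations with other genes are the highest of many over the same libraries and are given as a description.

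Around the 9 genes, 9 lists covered other parts of the pathway, from receptors to contraction, with 148 tested genes. They also hold related genes that act outside Gq signalling, such as the Gi alpha subunits. None of the 148 passed in any comparison. At an unadjusted p below 0.05, 6.08% of them were counted for celecoxib against vehicle, 4.05% for rofecoxib against vehicle and 4.05% for celecoxib against rofecoxib, beside the shares of 12.5%, 5.18% and 6.96% of all genes. The list medians lay between -0.07 and 0.06, between -0.09 and 0.05, and between -0.03 and 0.15 on the log2 scale.

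The most abundant of the 32 tested Gq-coupled receptors by CPM were the thrombin receptor F2r, the alpha-1 adrenergic receptor Adra1d and the prostaglandin E receptor Ptger1. F2r averaged 90.3 ± 4.23 CPM with vehicle, 94.0 ± 2.04 with celecoxib and 94.6 ± 6.43 with rofecoxib, and Adra1d 51.6 ± 4.41, 56.1 ± 7.96 and 51.7 ± 5.88 (SD, n = 5). Ptger1 averaged 56.0 ± 4.84, 48.9 ± 1.35 and 47.5 ± 1.77 CPM, and every library of both drug groups was below the lowest library of the vehicle group they share, where 1.3% and 1.16% of all genes did not overlap for celecoxib and rofecoxib. Its log2 fold changes of -0.19 ± 0.05 with celecoxib and -0.23 ± 0.05 with rofecoxib had edgeR adjusted p-values of 0.269 and 0.896. Among 11 other alpha subunits, Gnai2, Gnai1 and Gna12 led, and Gnai1, of the inhibitory Gi class, averaged 150.0 ± 9.04, 158 ± 4.80 and 167 ± 7.55 CPM (edgeR adjusted p = 0.896 for rofecoxib against vehicle). The list of other RGS genes, 13 tested, also holds Rgs7bp, which encodes a binding partner of RGS proteins and not an RGS protein. It was led by Rgs7bp, Rgs3 and Rgs7. Rgs3 averaged 57.2 ± 6.93, 49.0 ± 9.94 and 55.5 ± 3.37 CPM, a difference of -0.22 ± 0.13 on the log2 scale for celecoxib against vehicle (edgeR adjusted p = 0.490). Among 9 other phospholipase C genes, led by Plcg1, Plcd1 and Plce1, the list median for celecoxib against rofecoxib was 0.15, the highest of the 9 lists, with none called. Genes that led the other lists were Gnb1, Gng12 and Gnb2 for the beta and gamma subunits and Atp2a2, Itpr1 and Inpp5a for calcium release. Dgkz, Prkcd and Rasgrp2 led diacylglycerol and protein kinase C, and Mylk and Rhoa were among the leading genes for contraction. Gpsm2, Adrbk1 and Arrb1 led the list of receptor kinases, arrestins and other G protein regulators.

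**Figure D5:**
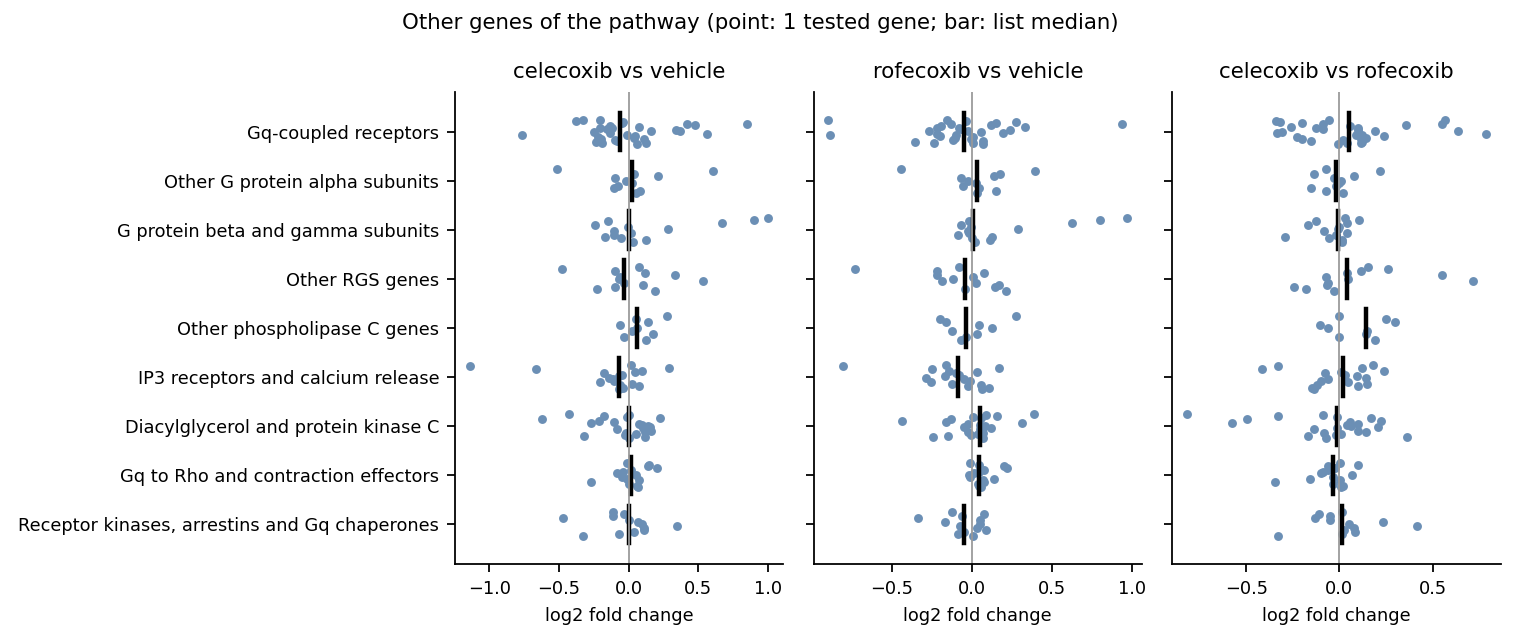
Log2 fold change of each tested gene (points) of the 9 pathway lists in the 3 comparisons, with the list median (bar). List medians lie between -0.09 and 0.15, and none of the 148 genes passed.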

How the data were processed

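The authors deposited 1 table of whole-number counts per gene for 15 libraries, with mm9 coordinates. The submitters' processing notes name CASAVA 1.8.2 and STAR 2.5.2a, with no role for either. How reads were assigned to genes, with or without strand, and with which annotation is not given in the sources used here, which leaves overlapping and antisense genes uncertain. Library totals differed by 0.0971% of their mean, which can reflect a step to a common total, and the depth before any such step is unknown. All 37 mitochondrial rows held 0 counts.

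Groups and replicate numbers came from sample titles. The counts were scaled by TMM and filtered with filterByExpr, which kept 15134 of 37681 genes holding 99.95% of counts. They were fitted with edgeR 4.0.16 (robust quasi-likelihood, no covariate, all 15 libraries) in R 4.3.3. The 3 comparisons were adjusted by Benjamini-Hochberg over all genes tested, at a threshold of 0.05. CPM used the scaled library sizes, and log2 CPM a prior count of 2. Correlations used log2 CPM after subtracting group means. Alternatives were DESeq2 1.42.0, limma-voom (limma 3.58.1), other scalings and filters, marker covariates, a replicate block, only the 10 libraries compared, and leaving out each library. No pair of libraries agreed within sampling noise (30 pairs within groups, smallest chi-square per gene 13.0).

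The 9 genes and all lists were chosen with earlier results of these data known. The text names the 9 genes, the 3 most abundant genes of each pathway list, the 3 genes that correlate best with each of the 9, and the 2 most abundant of a marker list where it is described. Some genes that this rule names are not reported here. Fkbp5, Mt1 and Mt2 were added after their values were seen. Replicate numbers were not treated as pairs: 6 of 15 pairs with a shared number had deviations correlated above 0.1, and r ranged from -0.72 to 0.78. Such correlations cannot exclude a shared handling step.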

Additional observations from a re-analysis of the deposited data

Results flagged for a closer look

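Celecoxib 1 lay far from the other celecoxib libraries in 2 of the 27 gene and group combinations examined for a single distant library. Its Gna11 level of 121.7 CPM was the lowest of its group, with a gap to the next library of 0.794 of the group's range. Its Rgs2 level of 76.8 CPM was the highest, with a gap of 0.749 of the range. Chance flags about 1 group in 20 by this measure, so 2 of 27 is close to that rate. How often it flags celecoxib 1 over all tested genes was not counted. Rgs4 was not flagged, although celecoxib 1 held its lowest level.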

How the results depend on the processing

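None of the 27 fold changes of the 9 genes passed the threshold in any of 564 values under alternatives. Of the 27, 18 kept their sign under every alternative other than leaving out 1 library, and 13 when those fits were counted too. DESeq2 called 126 genes for celecoxib against vehicle (33 higher, 93 lower) and 19 for celecoxib against rofecoxib (16 higher, 3 lower), where edgeR called 0; the cause was not tested. The adipocyte marker covariate turned the sign for celecoxib against vehicle of Plcb1 (-0.0486), Plcb4 (-0.0764), Gnaq (-0.00196) and Rgs5 (-0.000338), for rofecoxib against vehicle of Plcb1 (-0.0241), Gna11 (-0.0214), Rgs2 (0.0635) and Rgs4 (-0.00414), and for celecoxib against rofecoxib of Plcb1 (-0.0245). The adipocyte markers were on average lower in both drug groups, so fits with them cannot tell fat and drug apart. Without scaling, Gnaq was at -0.00107 for celecoxib against vehicle. Leaving out 1 library gave 0 to 8 called genes for celecoxib against vehicle (8 without celecoxib 4, 2 without vehicle 2 and 1 without celecoxib 5) and 0 to 1 for celecoxib against rofecoxib (1 without celecoxib 5). It gave log2 fold changes for celecoxib against vehicle of -0.0125 to 0.0674 for Gnaq, -0.80 to 0.40 for Plcb2 and -0.13 to 0.16 for Rgs2. For rofecoxib against vehicle these were -0.0131 to 0.0345 for Gna11, -1.24 to 0.00564 for Plcb2 (the latter without vehicle 1) and -0.00191 to 0.11 for Rgs4. For celecoxib against rofecoxib they were -0.0525 to 0.00838 for Gnaq, -0.0479 to 0.16 for Plcb1 and -0.0635 to 0.0113 for Plcb3. With the replicate block edgeR called 0 genes in each comparison, Plcb4 was at 0.27 for rofecoxib against vehicle, and 4 of 15 libraries correlated best with a library of their own number. Plcb2 did not reach 1 CPM in 5 libraries and had no value under that filter. At the depth of 4 to 55 counts per library, differences in Plcb2 were not measurable with useful precision.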
